A study of Danio rerio with 18 samples.

Results

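The mRNA bound to tagged ribosomes of whole zebrafish embryos was compared with the total RNA of the same embryos, to describe which functional classes of mRNA were over-represented or under-represented in the ribosome fraction at 24 hours post fertilization (hpf). The comparison used 6 of the 18 libraries of the series. The tested libraries were Ribotag IP samples 1, 2 and 3, RNA recovered with an HA antibody by translating ribosome affinity purification. They were set against Ribotag input samples 1, 2 and 3, the RNA of the lysate before the pull-down. Both groups came from pooled Ribotag transgenic zebrafish embryos that were positive for the transgene, at 24 hpf. Samples were chosen by their labels, and an IP and an input with the same number were treated as a pair throughout. Angiotag IP and Angiotag input, also 3 libraries each of transgene-positive pooled embryos at 24 hpf, form a second pull-down experiment that shares no library with this one and is used near the end for contrast.

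The labels do not give the promoter that drives the tag, and they do not say whether the 3 samples are separate pools of embryos, so the p-values reflect sample-to-sample spread that may be technical. That the tagged protein is Rpl10a comes from knowledge of the study and not from the labels. Libraries were stranded and were made after poly(A) selection or depletion of ribosomal RNA, and which library had which is not given in the sources used here.

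A ribosome translates an mRNA in the cytosol, and an antibody against a tag on a ribosomal protein brings down the ribosome together with the mRNA it holds. An mRNA with many ribosomes, or one made mainly in cells with many tagged ribosomes, is recovered well, while RNA outside cytosolic ribosomes is recovered poorly. Translation of single mRNAs is known to be tuned by elements in the message. Ferritin mRNA is repressed through an iron-responsive element, some stress-response mRNAs carry short upstream reading frames, and vertebrate ribosomal protein mRNAs carry a terminal oligopyrimidine tract that couples their translation to growth signals. Mitochondrially encoded mRNAs are translated by the organelle's own ribosomes, which have their own ribosomal proteins.

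Library totals were 29.5, 35.2 and 32.1 M (mega) counts in Ribotag IP and 36.4, 49.5 and 35.3 M in Ribotag input. The Ribotag IP libraries held counts for fewer genes, at 18491, 19924 and 19625 genes, against 21642, 22218 and 21375 in Ribotag input. Ribotag IP 2 stood apart in the share of counts that fell on cytosolic ribosomal protein genes. That share was 15.1%, 7.42% and 17.1% in Ribotag IP 1, 2 and 3 and 18.4%, 13.6% and 18.5% in Ribotag input 1, 2 and 3. Results that rest on pair 2 are therefore given with and without it. All tested markers of 10 tissues (brain, muscle, epidermis, blood, endothelium, yolk layer, notochord, lens, hatching gland and heart) had counts in every Ribotag library.

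Of 18134 genes tested, 1306 were higher in Ribotag IP (7.20% of the genes tested) and 1268 were lower (6.99%), by edgeR's quasi-likelihood test with the pairs as a block and a Benjamini-Hochberg adjusted p under 0.05. "Rose" and "fell" below mean that a gene passed this threshold in Ribotag IP relative to Ribotag input. The median log2 fold change of all tested genes was -0.10. By direction alone, 23.2% of the genes lay above 0 and 29.4% below 0 in all 3 pairs. The block had a large part in these counts, since without it 127 genes (0.700%) were higher and 90 (0.496%) lower. Leaving out pair 1, 2 or 3 gave 361 (1.98%), 557 (3.09%) or 1590 (8.54%) genes higher and 832 (4.55%), 867 (4.81%) or 977 (5.25%) lower. No gene called in 1 direction was called in the other direction under any of these settings.

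Levels below are in CPM, a gene's counts relative to the total of its library, scaled with TMM factors over the 6 libraries and given in the order of samples 1, 2 and 3, and a fold change is the log2 ratio of Ribotag IP over Ribotag input with its standard error (SE). Genes were grouped into 65 lists by function, tissue or pathway, and a list is described by how many of its tested members rose and fell and by its median log2 fold change. The lists held 3318 genes, of which 2996 passed the low-count filter. Of those, 413 (13.8%) rose and 245 (8.18%) fell. Counts of list members with pair 1, 2 or 3 left out are given in that order as leave-out counts, and the counts with no block are given with them.

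**Figure D1:**
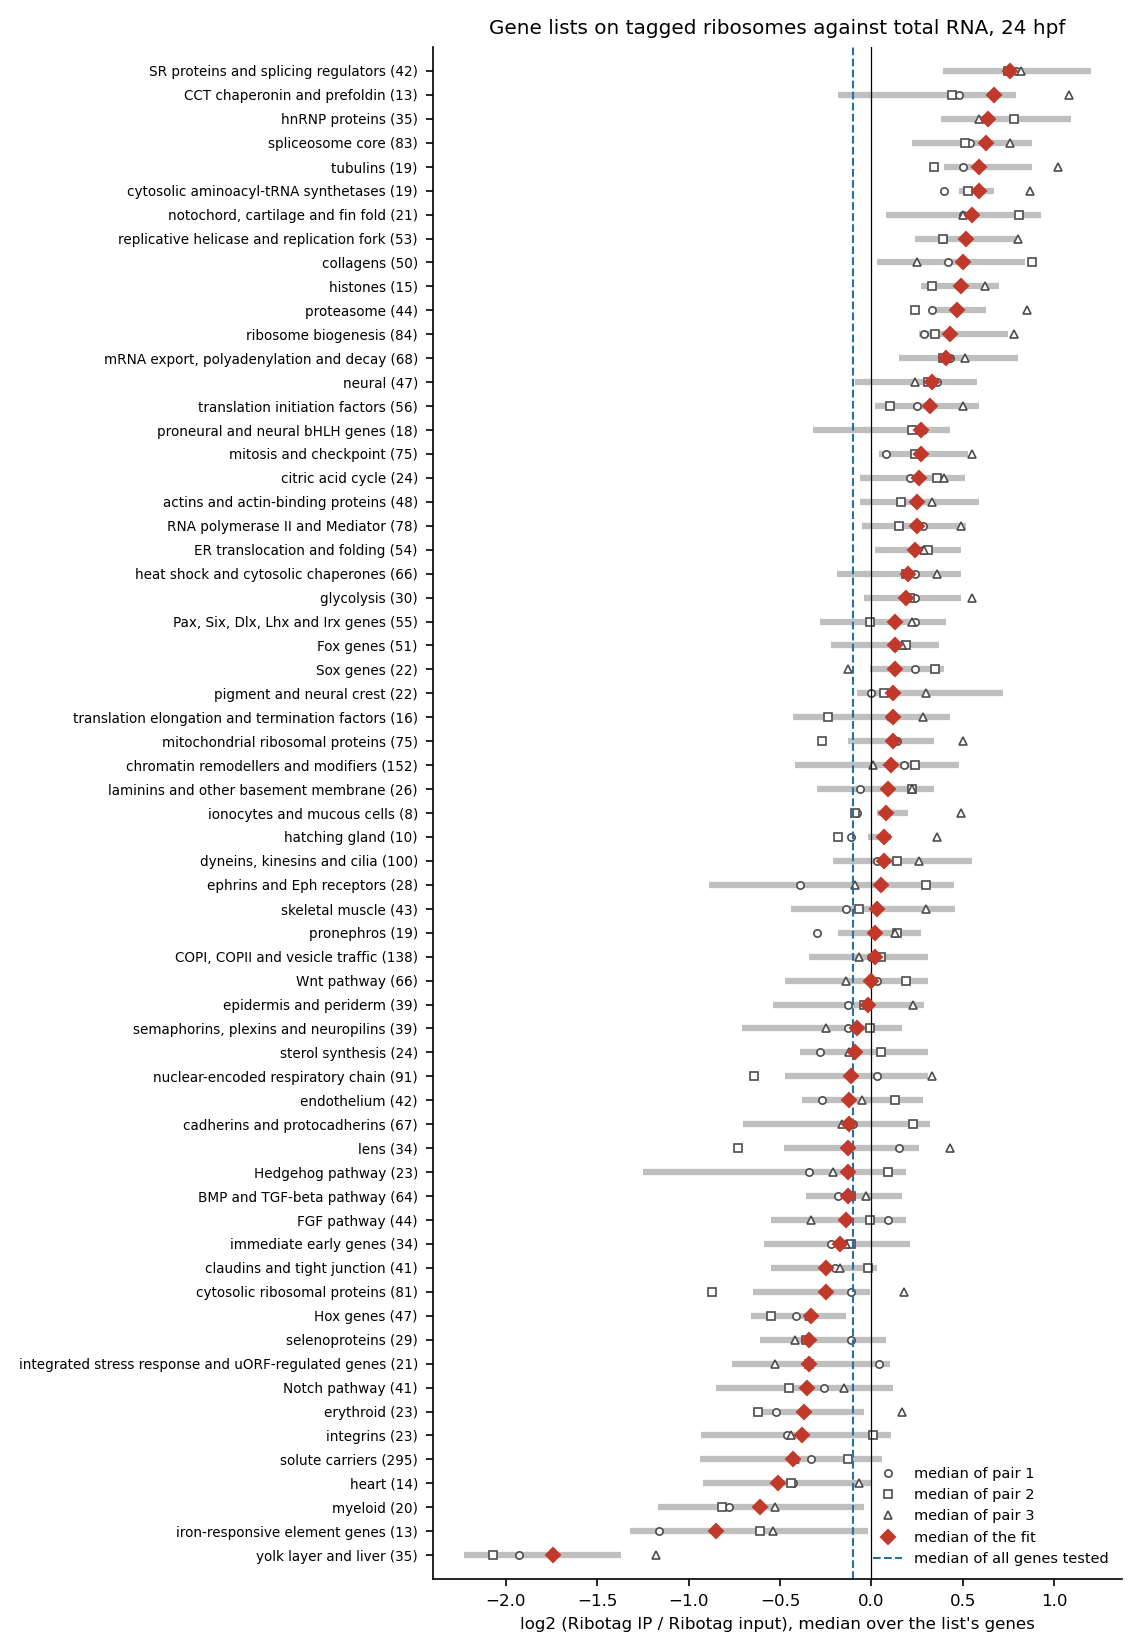
Median log2 fold change, Ribotag IP over Ribotag input, of 63 gene lists on the horizontal axis. Red diamonds are the medians of the fit, open symbols the medians of the 3 numbered pairs, grey bars the quartiles of the members, and the dashed line the median of all genes tested, -0.10. The 4 lists of RNA processing factors lie between 0.41 and 0.76, while the yolk layer and liver list lies farthest to the left at -1.74. The list of mitochondrially encoded mRNAs, at -4.83, and the list of 2 non-coding RNA genes are not drawn. The medians are not adjusted for the abundance of the messages.

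The share of genes called differed with the abundance of the message. Genes were put into 5 equal groups by their level in Angiotag input, libraries that took no part in this comparison. From the group of lowest to the group of highest level, 0.165%, 0.91%, 4.41%, 9.73% and 20.8% of genes rose, and 3.34%, 8.93%, 8.24%, 8.11% and 6.23% fell. The median log2 fold change moved from -0.70 in the lowest group over -0.36, -0.10 and 0.05 to 0.25 in the highest. A list of abundant mRNAs therefore meets more calls of higher than the 7.20% over all genes. For this reason a same-level share is given for the lists below, which is the share called among all genes in the same of 10 groups of level, averaged over the members of the list. The list medians below are not adjusted for level. After subtracting from each member the median of its group of level, the median was 0.03 for initiation factors and 0.05 for integrins. It was 0.00 for citric acid cycle genes and for chromatin remodellers and modifiers, -0.17 for myeloid genes and -0.22 for solute carriers. For SR proteins and splicing regulators it was 0.55, and for the yolk layer and liver -1.94.

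**Figure D2:**
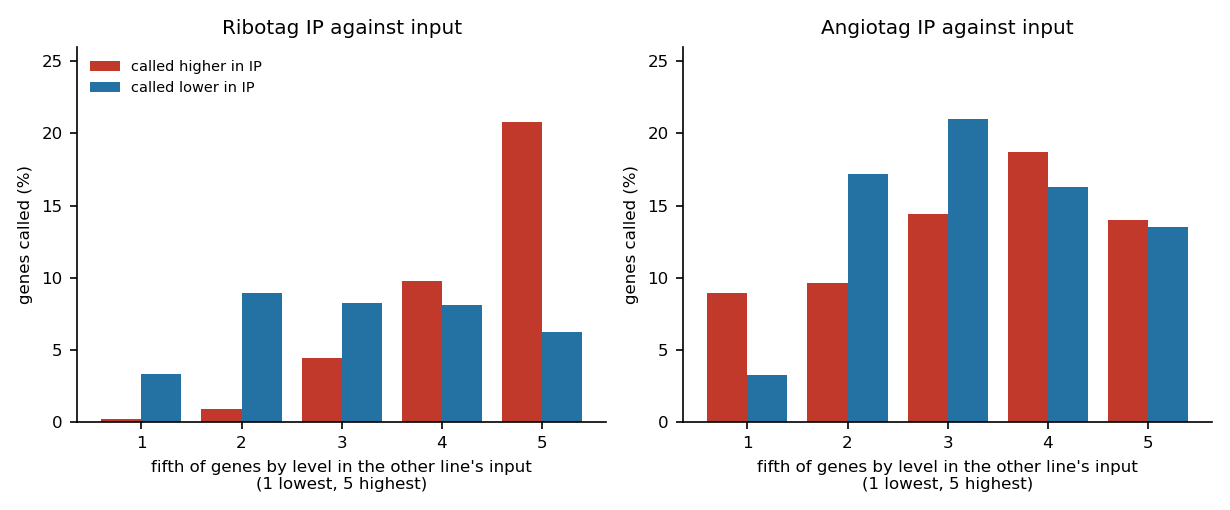
Share of genes called higher and lower, in percent, by group of level. In the left panel Ribotag IP is set against Ribotag input, with 5 groups by level in Angiotag input; in the right panel Angiotag IP is set against Angiotag input, with 5 groups by level in Ribotag input. In the left panel the bars for higher climb to 20.8% in the group of highest level, while the bars for lower stay between 3.34% and 8.93%.

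The highest shares of members that rose, among the 65 lists, were in 3 lists of RNA processing factors. Of 42 tested SR proteins and splicing regulators, 27 rose and 1 fell (64.3% rose, same-level share 19.4%), with a median of 0.76 and pair medians of 0.79, 0.75 and 0.82. The leave-out counts of members that rose were 15, 19 and 29, and 12 rose with no block. Of 83 genes of the spliceosome core, 42 rose and 1 fell (50.6% rose, same-level share 20.5%), with a median of 0.63, leave-out counts of 14, 29 and 39, and 5 with no block. Of 35 hnRNP genes, 19 rose and 1 fell (54.3% rose, same-level share 20%), with a median of 0.64, leave-out counts of 4, 11 and 21, and 5 with no block. Together the SR proteins and splicing regulators took up 1.2% ± 0.205 of all counts in Ribotag IP and 0.624% ± 0.0319 in Ribotag input (SD, n = 3 each). The hnRNP genes took up 2.42% ± 0.665 in Ribotag IP and 1.34% ± 0.139 in Ribotag input.

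wbp11, which encodes a splicing factor, had 186, 152 and 178 CPM in Ribotag IP, against 42.2, 40.0 and 48.6 CPM in Ribotag input. All 3 IP libraries lay well above all 3 input libraries, and the log2 fold change was 1.98 (SE 0.18, adjusted p = 0.000113). hnrnpa1a, whose product binds pre-mRNA and steers the choice of splice sites, had 1601, 1269 and 1284 CPM in Ribotag IP and 320, 329 and 409 CPM in Ribotag input. The groups did not overlap, and it rose by 1.97 (SE 0.22, adjusted p = 0.000445). ewsr1b, a member of the FET family of RNA-binding proteins, had 1781, 1419 and 1276 CPM in Ribotag IP and 463, 393 and 464 CPM in Ribotag input, and rose by 1.75 (SE 0.21, adjusted p = 0.000725). Its relatives ewsr1 and fus, at 1.70 and 1.71, and the exon junction protein gene acin1a, at 1.77, rose by about as much. These calls held with any pair left out and with no block.

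Within the spliceosome core, sf3b2 and sf3b4, subunits of the U2 particle that marks the branch point, rose by 1.4 and 1.36. ddx46, the helicase that acts with that particle, rose by 1.42. sf3b2 had 559, 460 and 789 CPM in Ribotag IP against 223, 187 and 265 CPM in Ribotag input, so its lowest IP library was above its highest input library. The fall in this list was lsm5, a ring protein of the U6 particle, by 0.66, and the fall among the SR proteins and splicing regulators was the kinase gene clk4a, by 0.95. Neither call held without pair 1 or without pair 2. hnrnpm, hnrnpa1l2 and hnrnpa0l rose by 1.53, 1.45 and 1.41, and the last call did not hold without pair 1. syncripl, listed with the hnRNP genes, fell by 1.18, a call that did not hold without pair 3.

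Among the genes named here, srsf3a had the largest rise, but its value is uncertain. It had 388, 926 and 555 raw counts in Ribotag IP and 0, 21 and 0 in Ribotag input, which the fit gave as 7.35 (SE 0.56). Under the symbol srsf3, ENSDARG00000025397 had a log2 fold change of 0.66 and ENSDARG00000059360 one of 1.24. Reads of such close copies can be split between them in counting, so the near absence of srsf3a from Ribotag input was not separated from that.

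Genes for mRNA export, polyadenylation and decay followed the splicing lists. Of 68 tested, 22 rose and 2 fell (32.4% rose, same-level share 14.9%), with a median of 0.41, leave-out counts of 12, 17 and 23 that rose, and 5 with no block. cstf2, a subunit of the cleavage stimulation factor, had 353, 305 and 447 CPM in Ribotag IP and 138, 118 and 145 CPM in Ribotag input. It rose by 1.45 (SE 0.19, adjusted p = 0.00103), and its groups lay far apart. alyref, an adaptor for nuclear export of mRNA, rose by 1.4, and the cleavage factor genes cpsf6 and cpsf2 rose by 1.23 and 1.18. pcf11, which acts in 3′ end cleavage and in termination, went the other way. It had 23.9, 20.3 and 25.8 CPM in Ribotag IP and 51.8, 47.1 and 49.4 CPM in Ribotag input, and fell by 1.09 (SE 0.17, adjusted p = 0.00279). exosc1, a subunit of the RNA exosome, fell by 1.3, a call that did not hold without pair 3.

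**Figure D3:**
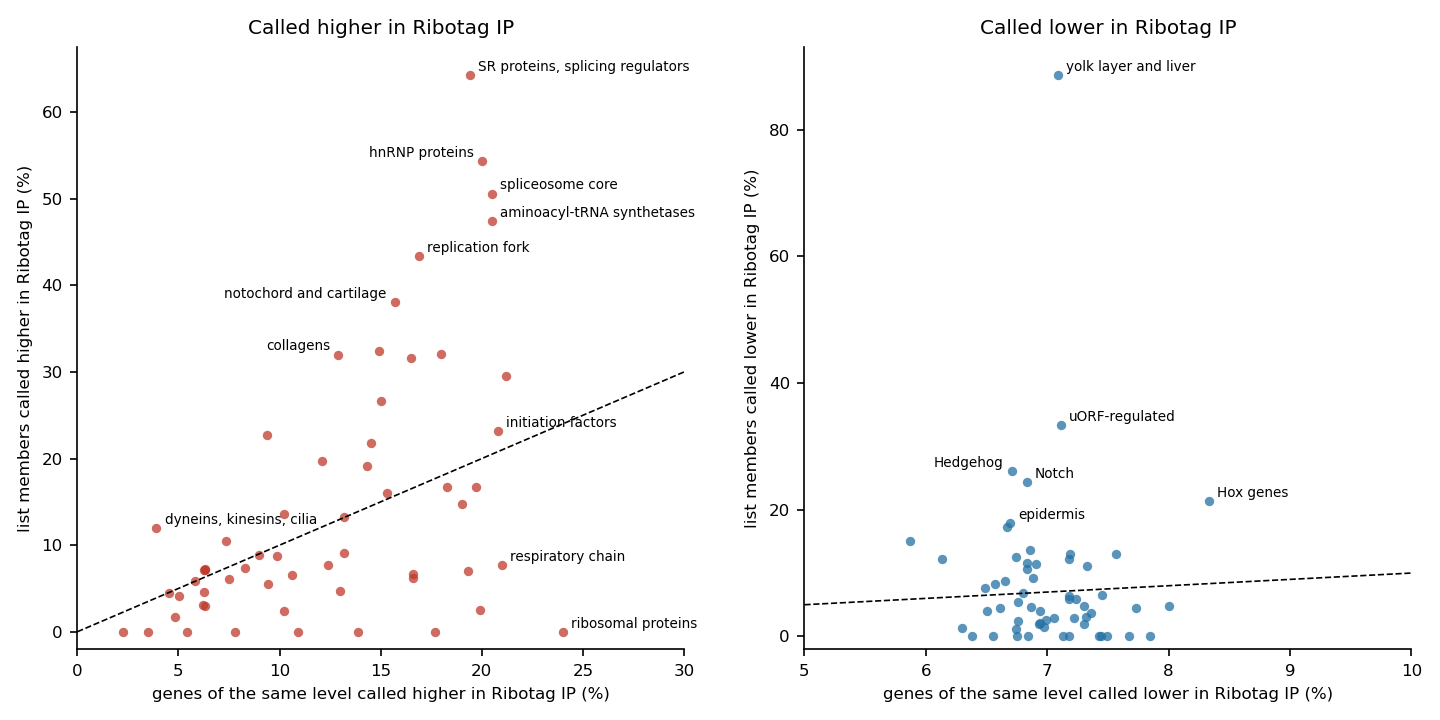
Share of tested members called, in percent, of 58 lists with at least 15 genes tested, on the vertical axis, against the share of all genes of the same level that were called, on the horizontal axis. The left panel shows genes called higher and the right panel genes called lower, and the dashed line marks equal shares. SR proteins and splicing regulators (64.3%), hnRNP proteins (54.3%) and the spliceosome core (50.6%) stand highest on the left, and yolk layer and liver (88.6%) on the right.

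The translation machinery did not move as a whole. None of the 81 cytosolic ribosomal protein genes rose (0%, same-level share 24%) and 11 fell (13.6%, same-level share 6.86%). Their median was -0.25, with pair medians of -0.11, -0.87 and 0.18, and 31 members lay below 0 in all 3 pairs while 1 lay above. Pair 2 set much of this unadjusted median, which was 0.01 without it. After subtracting from each member the median of its group of level, the median over all 3 pairs was -0.55. The leave-out counts that fell were 9, 7 and 15, and none fell with no block. rplp2, a protein of the ribosomal stalk, had 147, 39.7 and 113 CPM in Ribotag IP and 329, 163 and 291 CPM in Ribotag input. Its IP libraries were all below its input libraries, and it fell by 1.52 (SE 0.21, adjusted p = 0.00149), with any pair left out as well. rpl39 had 1154, 261 and 991 CPM in Ribotag IP and 2044, 1099 and 1983 CPM in Ribotag input. Ribotag IP 1 lay above Ribotag input 2, so the groups overlapped, yet each IP was below its own input, and rpl39 fell by 1.29 (SE 0.26, adjusted p = 0.00906). rps27.1 and rpl29 fell by 1.24 and 1.29 with overlapping groups.

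rpl10a, the gene of the protein that carries the tag, had 2216, 1087 and 2920 CPM in Ribotag IP and 2464, 1570 and 2410 CPM in Ribotag input. The groups overlapped, and the log2 fold change was -0.14 (SE 0.23, adjusted p = 0.731).

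Cytosolic aminoacyl-tRNA synthetases, which charge tRNAs, rose in 9 of 19 cases and none fell (47.4%, same-level share 20.5%). Their median was 0.59 with pair medians of 0.40, 0.53 and 0.87, leave-out counts of 4, 4 and 8, and 1 with no block. vars1, for valine, had 145, 164 and 204 CPM in Ribotag IP and 84.8, 71.9 and 78.4 CPM in Ribotag input, and rose by 1.11 (SE 0.19, adjusted p = 0.00387). The groups did not overlap, and mars1, iars1 and rars1, for methionine, isoleucine and arginine, rose by 1.01, 0.97 and 0.88.

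Ribosome biogenesis factors rose in 27 of 84 cases and none fell (32.1%, same-level share 18%), with a median of 0.43. The leave-out counts that rose were 8, 17 and 24, and 4 rose with no block. ddx54, a nucleolar helicase, had 177, 149 and 205 CPM in Ribotag IP and 71.3, 65.1 and 89.7 CPM in Ribotag input, and rose by 1.23 (SE 0.17, adjusted p = 0.00158). All IP libraries were above all input libraries. mybbp1a, a nucleolar protein gene, and utp18, of the small-subunit processome, rose by 1.21 and 1.31.

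Of 56 initiation factor genes, 13 rose and 3 fell (23.2% rose, same-level share 20.8%), with a median of 0.32, so the share that rose was near that of other genes of the same level. The leave-out counts were 5, 5 and 14 that rose and 2, 2 and 3 that fell, and with no block none rose and 2 fell. eif4b, the cofactor of the eIF4A helicase, had 1024, 805 and 1225 CPM in Ribotag IP and 457, 390 and 509 CPM in Ribotag input. It rose by 1.16 (SE 0.20, adjusted p = 0.00387), as did eif3a, the largest eIF3 subunit, by 1.14, and neither call held without pair 1. eif2a and eif4a3, whose product is best known from the exon junction complex, rose by 0.95 and 1.02.

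The initiation factor genes named here that fell had lower levels than those that rose. pabpc1b, a poly(A)-binding protein gene, had 19.3, 20.6 and 31.0 CPM in Ribotag IP and 64.9, 76.7 and 72.9 CPM in Ribotag input. Its groups lay far apart, and it fell by 1.63 (SE 0.19, adjusted p = 0.000637). eif4a2 fell by 1.31, and both calls held without any pair and with no block. Elongation and termination factors held copies that moved apart. eef2b, for the factor that translocates the ribosome, had 10431, 9549 and 14611 CPM in Ribotag IP and 6440, 5795 and 6966 CPM in Ribotag input, and rose by 0.83 (SE 0.23, adjusted p = 0.0312), a call that did not hold without pair 1. Its copy eef2a.1 had 7.10, 9.03 and 10.3 CPM in Ribotag IP and 28.1, 31.4 and 38.3 CPM in Ribotag input, and fell by 1.89 (SE 0.19, adjusted p = 0.00019). eef2a.2 fell by 1.97, and 1 rise and 2 falls were all the calls among 16 genes of this list (6.25% and 12.5%, same-level shares 16.6% and 6.74%, median 0.12). The leave-out counts were 0, 2 and 1 that rose and 2, 2 and 2 that fell, and 1 fell with no block. The mitochondrial ribosomal protein genes gave 5 rises and 1 fall among 75 (6.67% and 1.33%, same-level shares 16.6% and 6.3%, median 0.12), with mrpl39 rising by 0.94. Only 1, 2 and 3 rose in the leave-out counts, and none with no block.

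DNA replication factors were another class with many rises. Of 53 tested, 23 rose and 1 fell (43.4% rose, same-level share 16.9%), with a median of 0.52, leave-out counts of 8, 14 and 18, and 1 with no block. mcm7, a subunit of the replicative helicase, had 821, 793 and 979 CPM in Ribotag IP and 288, 250 and 280 CPM in Ribotag input. The groups did not overlap, and it rose by 1.66 (SE 0.20, adjusted p = 0.000678). pole2, of the leading-strand polymerase, rose by 1.33, mcm5 by 1.09 and the fork protein gene tipin by 1.83. tipin was uneven within Ribotag IP, at 226, 186 and 61.9 CPM, against 38.1, 37.7 and 41.9 CPM in Ribotag input. The thymidine kinase gene tk1 fell by 0.66, a call that was lost when any of the pairs was left out.

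Mitosis and checkpoint genes rose in 12 of 75 cases and fell in 3 (16% and 4%, same-level shares 15.3% and 6.94%), close to other genes of their level, with a median of 0.27. Their leave-out counts were 2, 4 and 11 that rose, and 1 rose with no block. smc4, a condensin subunit, had 284, 350 and 417 CPM in Ribotag IP and 150, 152 and 162 CPM in Ribotag input, and rose by 1.16 (SE 0.19, adjusted p = 0.00312). bub3, of the spindle checkpoint, rose by 1.03, while the large kinetochore protein gene cenpf fell by 0.93, a call that did not hold without pair 1.

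Chromatin remodellers and modifiers moved both ways. Of 152, 30 rose and 9 fell (19.7% and 5.92%, same-level shares 12% and 7.18%), with a median of 0.11, leave-out counts of 6, 13 and 36 that rose and 6, 6 and 5 that fell, and 3 rises and no fall with no block. chd4, the ATPase of the NuRD complex, had 584, 696 and 618 CPM in Ribotag IP and 217, 245 and 221 CPM in Ribotag input, and rose by 1.47 (SE 0.19, adjusted p = 0.00104). All its IP libraries lay above all its input libraries. smarcc1 of the BAF complex, eed of Polycomb complex PRC2 and the demethylase gene kdm5b rose by 1.23, 1.21 and 1.08. The methylcytosine dioxygenase gene tet3 had 2.25, 8.93 and 0.907 CPM in Ribotag IP and 9.88, 21.4 and 3.93 CPM in Ribotag input. Samples ranked alike in both groups, with each IP below its own input, and tet3 fell by 1.79 (SE 0.26, adjusted p = 0.0019). The demethylase gene kdm6bb fell by 1.81 with the same order of samples.

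RNA polymerase II and Mediator genes rose in 17 of 78 cases and fell in 2 (21.8% rose, same-level share 14.5%), with a median of 0.25, leave-out counts of 4, 4 and 18, and 1 with no block. taf3, of the TFIID complex, rose by 1.06 and med18, of the Mediator head, by 1.21. Of 15 histone genes, 4 rose and none fell (26.7%, same-level share 15%), with a median of 0.49, leave-out counts of 0, 2 and 3, and none with no block. The histone genes that rose were h3f3b.1, h2az2, h2ax1 and h3f3d, which encode H3.3 and H2A variants, at log2 fold changes between 0.67 and 0.89. Histone genes have many near-identical copies, so values of single copies are uncertain.

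Protein folding and turnover genes rose in part. Of 44 proteasome genes, 13 rose and none fell (29.5%, same-level share 21.2%), with a median of 0.47, leave-out counts of 2, 10 and 11, and 1 with no block. psmd3, of the proteasome lid, had 435, 418 and 627 CPM in Ribotag IP and 196, 160 and 200 CPM in Ribotag input, and rose by 1.39 (SE 0.20, adjusted p = 0.00155). The groups lay apart, and psmd1, of the base, rose by 1.15. Of 13 genes of the CCT chaperonin, which folds actin and tubulin, and of prefoldin, 6 rose and none fell (46.2%, same-level share 23.1%), with a median of 0.67, leave-out counts of 1, 4 and 4, and 1 with no block. The subunit gene tcp1 had 1118, 1147 and 1256 CPM in Ribotag IP and 554, 473 and 536 CPM in Ribotag input, and rose by 1.17 (SE 0.20, adjusted p = 0.00394). cct4, cct8 and cct3 rose by 0.98, 0.82 and 0.79, and none of the 3 calls held without pair 1. Heat shock and cytosolic chaperone genes rose in 9 of 66 cases and fell in 1 (13.6% rose, same-level share 10.2%, median 0.20), with leave-out counts of 2, 4 and 11 and none with no block. dnajc2, a chaperone that sits on the ribosome, rose by 1.21 and hsp90aa1 by 0.93.

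Cytoskeletal genes gave rises and hardly any falls. Of 19 tubulin genes, 6 rose and none fell (31.6%, same-level share 16.5%), with a median of 0.59, leave-out counts of 1, 7 and 5, and none with no block. Tubulins took up 1.6% ± 0.269 of counts in Ribotag IP and 1% ± 0.0444 in Ribotag input (SD, n = 3 each). tubb2b had 5049, 3941 and 6705 CPM in Ribotag IP and 2382, 1866 and 2283 CPM in Ribotag input. It rose by 1.24 (SE 0.22, adjusted p = 0.00529), as did tubb5 by 1.19, and neither call held without pair 1, although their groups did not overlap.

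Of 100 dynein, kinesin and cilia genes, 12 rose and none fell (12%, same-level share 3.9%). Their median was 0.07, against -0.10 over all genes, and it was 0.30 after subtracting from each member the median of its group of level. The leave-out counts were 2, 4 and 10, with 1 under no block. dync1h1, the heavy chain of cytoplasmic dynein, carried the largest value. It had 252, 456 and 209 CPM in Ribotag IP and 55.3, 70.5 and 69.2 CPM in Ribotag input, and rose by 2.16 (SE 0.23, adjusted p = 0.000337) with groups far apart. ift74 and ift80, of the intraflagellar transport complex, rose by 1.15 and 0.83. Actin and actin-binding genes rose in 8 of 48 cases and fell in 1 (16.7%, same-level share 18.3%, median 0.25), with leave-out counts of 0, 5 and 11 and none with no block. actb2, the main cytoplasmic actin gene, had 8535, 8156 and 9245 CPM in Ribotag IP and 4365, 3873 and 4254 CPM in Ribotag input, a rise of 1.05 (SE 0.22, adjusted p = 0.0101) that did not hold without pair 1.

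Among genes for extracellular and membrane proteins, collagens held more rises, and solute carriers more falls, than other genes of their level. Of 50 collagen genes, 16 rose and 2 fell (32% rose, same-level share 12.9%). Their median was 0.50, with pair medians of 0.42, 0.88 and 0.25, leave-out counts of 5, 9 and 22, and 2 with no block. col5a3b had 153, 287 and 263 CPM in Ribotag IP and 45.6, 69.0 and 77.0 CPM in Ribotag input, and rose by 1.86 (SE 0.18, adjusted p = 0.000195). col1a2, a chain of type I collagen, had 1089, 1603 and 1269 CPM in Ribotag IP and 471, 523 and 531 CPM in Ribotag input, and rose by 1.36 (SE 0.21, adjusted p = 0.00214). In both genes every IP library was above every input library, and both calls held with any pair left out and with no block. col1a1 rose by 1.16 and col6a1 fell by 0.78, a call lost with any pair left out. Collagens made up 1.32% ± 0.528 of counts in Ribotag IP and 0.754% ± 0.113 in Ribotag input (SD, n = 3 each).

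Of 295 solute carrier genes, 5 rose and 36 fell (1.69% and 12%, same-level shares 4.81% and 7.18%), with a median of -0.43. The leave-out counts that fell were 23, 31 and 27, and 5 fell with no block. slc43a2, an amino acid transporter, had 11.3, 13.9 and 11 CPM in Ribotag IP and 60.7, 55.3 and 48.3 CPM in Ribotag input, and fell by 2.18 (SE 0.19, adjusted p = 8.76e-05). The glucose transporter gene slc2a2 had 2.10, 2.21 and 2.21 CPM in Ribotag IP and 8.90, 9.22 and 8.47 CPM in Ribotag input, and fell by 2.03 (SE 0.26, adjusted p = 0.000988). In both, the groups were far apart, and both calls held without any pair and with no block. slc2a1, another glucose transporter gene, and slc27a2a, which acts on fatty acids, fell by 2.23 and 1.25. Of the members that rose, slc7a6os, at 1.39, is named for its place beside a carrier gene and is not itself a carrier, and slc45a2, at 0.80, belongs to pigment cells.

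Genes of the secretory pathway were mixed. ER translocation and folding gave 8 rises and 5 falls among 54 (14.8% and 9.26%, same-level shares 19% and 6.88%, median 0.24). The leave-out counts were 0, 3 and 11 that rose and 3, 2 and 2 that fell, and none was called with no block. pdia6, a disulphide isomerase gene, rose by 0.91 and rpn1, of the oligosaccharyltransferase, by 0.94, and neither call held without pair 1. The translocon subunit gene sec61g fell by 1.11, a call that did not hold without pair 2, while spcs2, of the signal peptidase, fell by 1.15 with any pair left out. COPI, COPII and vesicle traffic genes rose in 9 of 138 cases and fell in 9 (6.52% each, same-level shares 10.6% and 7.45%, median 0.02), with leave-out counts of 1, 1 and 16 that rose and 6, 6 and 5 that fell, and none with no block. sar1ab, a COPII GTPase gene, fell by 1.00 while its copy sar1b rose by 0.81, a call that needed pairs 1 and 2.

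Adhesion molecules gave small numbers of calls. Laminins and other basement membrane genes gave 2 rises and 3 falls among 26 (7.69% and 11.5%, same-level shares 12.4% and 6.91%, median 0.09), with nid2, for nidogen, rising by 1.14 and hspg2, for perlecan, falling by 1.3. Claudin and tight junction genes gave 3 rises and 5 falls among 41 (7.32% and 12%, same-level shares 8.31% and 6.13%, median -0.25), with cldnf falling by 0.98. Cadherins and protocadherins gave 3 rises and 2 falls among 67 (4.48% and 2.99%, same-level shares 4.52% and 7.32%, median -0.12). Integrins gave no rise and 3 falls among 23 (13% fell, same-level share 7.57%, median -0.38, or 0.05 after subtraction by level). The shares of falls in the laminin, claudin and integrin lists were thus above those of other genes of their level, on 3 to 5 genes each. In the cadherin list cdh2 rose by 0.69, a call lost without pair 1 or pair 2, and cdh15 fell by 2.18. The integrin calls were both genes named itgb1, at -2.02 and -1.13, and itgav at -0.80. In the order laminins, claudins, cadherins and integrins, the leave-out counts that rose ran from 1 to 4, from 1 to 2, from 0 to 8 and from 0 to 1, and those that fell from 1 to 4, from 1 to 7, from 2 to 5 and from 2 to 3. With no block these 4 lists held 1 call, a rise among the laminins.

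All mitochondrially encoded mRNAs that were tested fell. All 12 fell (100%, same-level share 6.89%), with a median of -4.83 and pair medians of -4.76, -5.76 and -4.51. All 12 also fell with any pair left out, and 11 with no block. These mRNAs took up 0.139% ± 0.0276 of counts in Ribotag IP and 4.2% ± 0.161 in Ribotag input (SD, n = 3 each). mt-nd5, a subunit of complex I, had 18.3, 17.8 and 28.6 CPM in Ribotag IP and 1231, 1616 and 1037 CPM in Ribotag input, and fell by 5.92 (SE 0.31, adjusted p = 9.78e-07). mt-co1, the most abundant of them, had 748, 489 and 405 CPM in Ribotag IP and 12346, 12109 and 11323 CPM in Ribotag input, and fell by 4.49 (SE 0.27, adjusted p = 3.22e-06). No IP library came near an input library in either gene. The falls ran from 4.35 for mt-nd1 to 7.23 for mt-atp8, and mt-atp8 was the least certain, with 0, 16 and 91 raw counts in Ribotag IP and 1083, 16030 and 5334 in Ribotag input.

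The nuclear genes of the respiratory chain, whose mRNAs are translated by cytosolic ribosomes, did not share that fall. Of 91, 7 rose and 8 fell (7.69% and 8.79%, same-level shares 21% and 6.65%), with a median of -0.11 and pair medians of 0.03, -0.64 and 0.33. After subtracting from each member the median of its group of level, the median was -0.33. Pair 2 carried the falls, since the leave-out counts that fell were 9, 0 and 13, and those that rose 1, 5 and 6; no gene was called with no block. ndufa1, a small complex I subunit, had 107, 18.2 and 65.4 CPM in Ribotag IP and 142, 67.2 and 132 CPM in Ribotag input. The groups overlapped, and its fall by 1.1 (SE 0.25, adjusted p = 0.0152) did not hold without pair 2, nor did the falls of atp5f1e by 1.08 and uqcr10 by 0.89. ndufs1, the large subunit of complex I, had 234, 234 and 320 CPM in Ribotag IP and 139, 126 and 135 CPM in Ribotag input, and rose by 0.96 (SE 0.19, adjusted p = 0.0077) with any pair left out.

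Citric acid cycle genes rose in 4 of 24 cases and fell in 2 (16.7% and 8.33%, same-level shares 19.7% and 6.57%, median 0.26), with leave-out counts of 0, 0 and 5 that rose, and no rise and 1 fall with no block. The rises of dlst, pdhb, fh and pdhx lay between 0.63 and 0.75 and needed pairs 1 and 2. pc, for pyruvate carboxylase, had 4.06, 5.19 and 2.92 CPM in Ribotag IP and 17.5, 21.8 and 15.8 CPM in Ribotag input. Its groups lay far apart, and it fell by 2.20 (SE 0.21, adjusted p = 0.000174). Glycolysis genes rose in 4 of 30 cases and none fell (13.3%, same-level share 13.2%, median 0.19), with leave-out counts of 1, 0 and 3 and none with no block, pkm having the smallest adjusted p at a rise of 0.83. Sterol synthesis gave 1 call in 24 (4.17% rose, same-level share 5.05%, median -0.09, no call with no block), the regulator srebf2, which rose by 0.95 only with pairs 1 and 2 present.

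Lists built around translational control elements held more falls than other genes of their level. Of 13 genes known in vertebrates for an iron-responsive element or for iron handling, 7 fell and none rose (53.8%, same-level share 6.79%). Their median was -0.85, with pair medians of -1.16, -0.61 and -0.54, leave-out counts of 5, 6 and 8, and 2 with no block. fth1a, the ferritin heavy chain that stores iron, had 404, 277 and 451 CPM in Ribotag IP and 1108, 801 and 1074 CPM in Ribotag input. Every IP library was below every input library, and fth1a fell by 1.41 (SE 0.20, adjusted p = 0.00155), with any pair left out and with no block. The ferritin gene fthl27 had 134, 62.0 and 171 CPM in Ribotag IP and 322, 220 and 376 CPM in Ribotag input, and fell by 1.41 (SE 0.20, adjusted p = 0.00162). tfr1b, a transferrin receptor gene, had 11.5, 16.6 and 17.7 CPM in Ribotag IP and 36.2, 36.4 and 41.5 CPM in Ribotag input, and fell by 1.34 (SE 0.19, adjusted p = 0.00155). In mammals the element of ferritin represses translation, whereas those of the transferrin receptor act on mRNA stability. Genes of both kinds fell here, and whether such elements had a part in the falls was not tested. epas1, a hypoxia-inducible factor whose mammalian mRNA holds such an element, fell by 1.32. The list took up 0.0842% ± 0.00259 of counts in Ribotag IP and 0.196% ± 0.00853 in Ribotag input (SD, n = 3 each).

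Selenoproteins, which need a stop codon to be read as selenocysteine, fell in 5 of 29 cases and none rose (17.2%, same-level share 6.67%), with a median of -0.34, leave-out counts of 3, 4 and 4, and 1 with no block. gpx4a, a glutathione peroxidase gene, had 65.2, 22.3 and 60.6 CPM in Ribotag IP and 165, 76.8 and 131 CPM in Ribotag input, and fell by 1.41 (SE 0.19, adjusted p = 0.00133). selenop, a secreted selenium carrier, had 53.1, 46.0 and 28.8 CPM in Ribotag IP and 108, 99.4 and 124 CPM in Ribotag input, and fell by 1.41 (SE 0.23, adjusted p = 0.00283). Neither gene had overlapping groups. Genes of the integrated stress response or known for upstream reading frames fell in 7 of 21 cases and rose in 1 (33.3% fell, same-level share 7.11%), with a median of -0.34, leave-out counts of 3, 4 and 6 that fell, and none with no block. chac1, a target of the stress response, had 53.5, 28.3 and 42.4 CPM in Ribotag IP and 80.6, 66.5 and 82.9 CPM in Ribotag input. It fell by 0.93 (SE 0.18, adjusted p = 0.00825) without overlap, but the call did not hold without pair 2. cebpa and azin1, whose mammalian mRNAs carry upstream reading frames, fell by 0.98 and 0.76, calls that did not hold without pair 1, and ddit4 rose by 0.75, a call lost without pair 1 or pair 2.

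**Figure D4:**
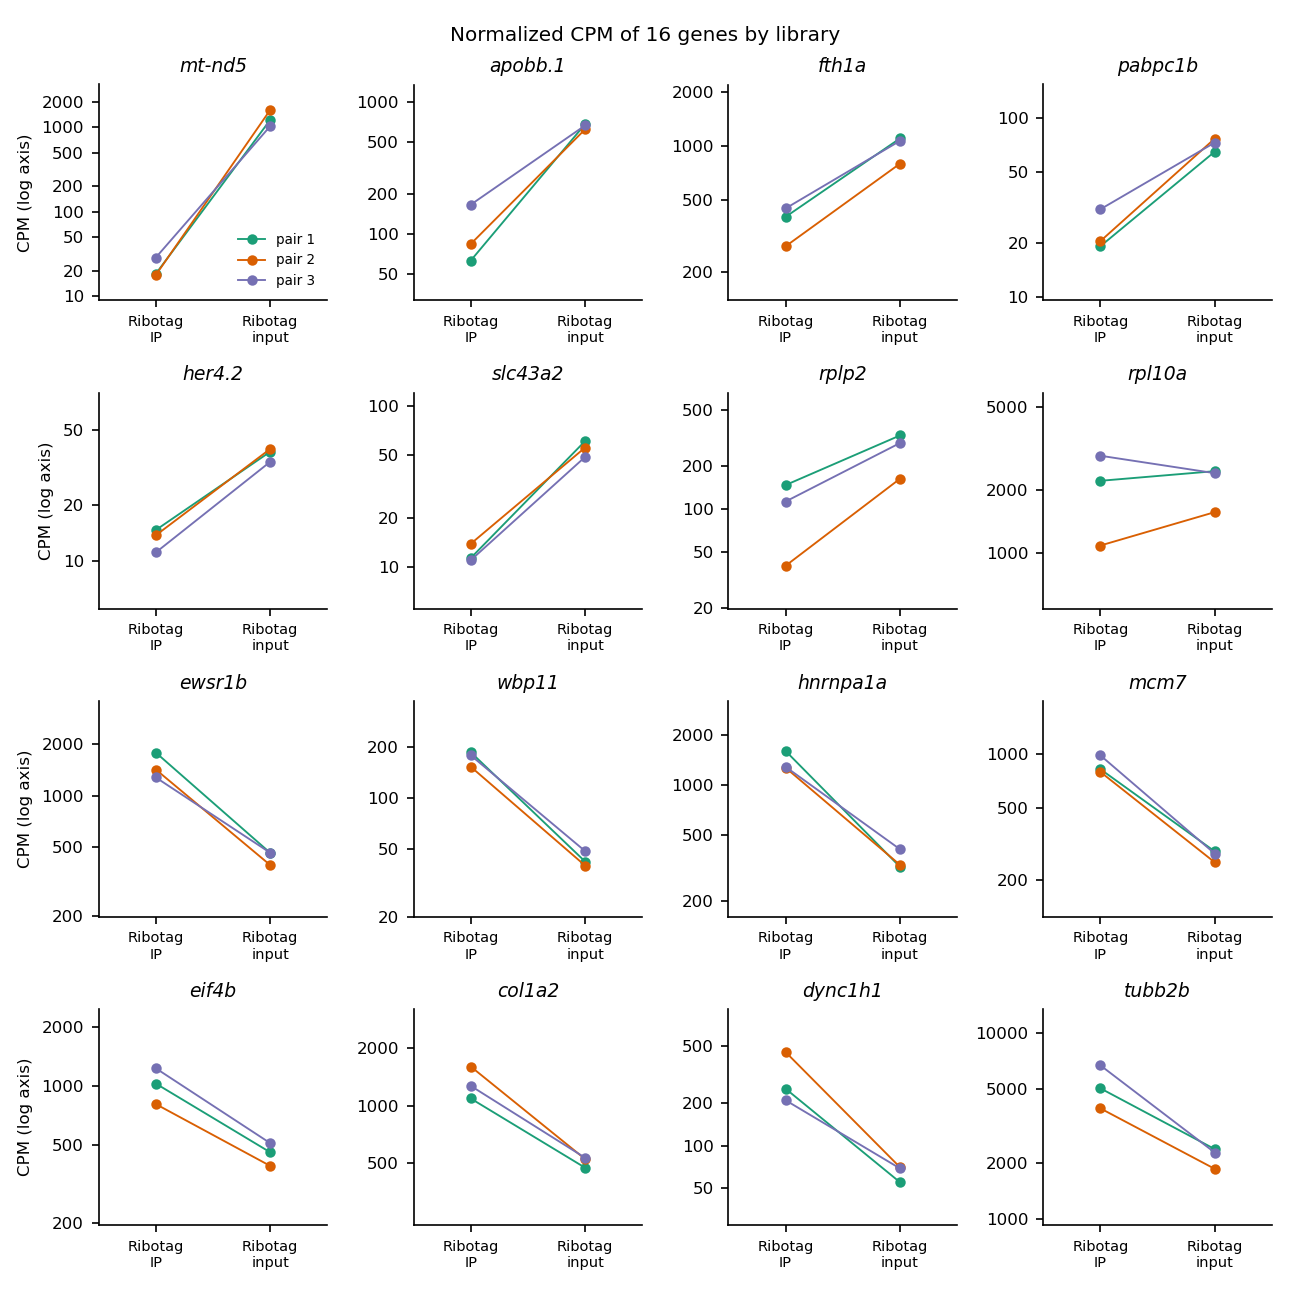
Levels of 16 genes in each library, in TMM-scaled CPM on a log axis, with Ribotag IP on the left and Ribotag input on the right of each panel. Lines join an IP and an input with the same number. mt-nd5 drops steeply in the IP, hnrnpa1a, wbp11, mcm7 and dync1h1 lie above their inputs in all 3 pairs, fth1a, pabpc1b, her4.2 and slc43a2 lie below, and rpl10a overlaps.

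Among developmental genes, Hox, Notch and Hedgehog genes fell more often than other genes of their level. Of 47 Hox genes, which pattern the body axis, 10 fell and none rose (21.3%, same-level share 8.33%). Their median was -0.33, with pair medians of -0.41, -0.55 and -0.34, and 27 members lay below 0 in all 3 pairs while 2 lay above. The leave-out counts were 3, 4 and 9, and none fell with no block. hoxc1a had 13.6, 16.5 and 15.2 CPM in Ribotag IP and 26.9, 33.4 and 28.3 CPM in Ribotag input, and fell by 0.97 (SE 0.18, adjusted p = 0.00586) with any pair left out. hoxd3, hoxb1b and hoxb7 fell by 0.84, 0.91 and 0.89, but each of these calls was lost without pair 1 or without pair 2.

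Of 41 Notch pathway genes, 10 fell and 1 rose (24.4% fell, same-level share 6.83%), with a median of -0.35, leave-out counts of 9, 7 and 10 that fell, and 1 with no block. her4.2, a direct target of Notch that holds back neurogenesis, had 14.6, 13.7 and 11.1 CPM in Ribotag IP and 38.5, 39.8 and 34 CPM in Ribotag input. The groups were far apart, and it fell by 1.52 (SE 0.18, adjusted p = 0.000678). nrarp, a feedback inhibitor of Notch, had 5.03, 5.77 and 2.25 CPM in Ribotag IP and 13.3, 24.8 and 10.1 CPM in Ribotag input, and fell by 1.88 (SE 0.23, adjusted p = 0.000851). The receptor gene notch3 fell by 1.09 and the target gene her4.5 by 1.80, so targets, an inhibitor and a receptor were all among the falls. The ligand gene jag2b rose by 0.76, a call that was lost without pair 1 or pair 2.

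Of 23 Hedgehog pathway genes, 6 fell and 2 rose (26.1% and 8.7%, same-level shares 6.71% and 9.85%), with a median of -0.13. The leave-out counts that fell were 6, 5 and 6, and none was called with no block. gli3, a transcription factor gene of the pathway, had 3.19, 8.66 and 4.34 CPM in Ribotag IP and 10.7, 15.4 and 11.5 CPM in Ribotag input. Every IP library was below every input library, and gli3 fell by 1.31 (SE 0.24, adjusted p = 0.00578) with any pair left out. The receptor gene ptch1 fell by 1.25, and disp1, which releases the ligand, by 1.29. kif7 and gli2 rose by 0.75 and 0.64, both only with pairs 1 and 2 present.

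The other signalling lists were close to all genes. The Wnt list gave 4 rises and 3 falls among 66 (median 0.00), the FGF list 2 and 3 among 44 (median -0.14), the BMP and TGF-beta list 2 and 3 among 64 (median -0.13), ephrins and Eph receptors 2 and 3 among 28 (median 0.05), and semaphorins, plexins and neuropilins 0 and 3 among 39 (median -0.08). In that order, 6.06%, 4.55%, 3.12%, 7.14% and 0% rose, with same-level shares of 7.52%, 6.28%, 6.19%, 6.31% and 5.44%. The shares that fell were 4.55%, 6.82%, 4.69%, 10.7% and 7.69%, with same-level shares of 6.61%, 6.8%, 6.87%, 6.83% and 6.49%. bmp1, a secreted protease that also processes procollagen, had 71.3, 70.3 and 68.7 CPM in Ribotag IP and 34.6, 29.5 and 30.9 CPM in Ribotag input. It rose by 1.15 (SE 0.17, adjusted p = 0.00195) and held without any pair and with no block. The Wnt co-receptor gene lrp6 rose by 0.90, and the FGF feedback inhibitors spred2 and spry4 fell by 1.43 and 0.90. The calls of lrp6 and spry4 did not hold without pair 1. In the order given, the leave-out counts that rose ran from 0 to 9, from 0 to 4, from 1 to 4, from 0 to 4 and from 0 to 1, and those that fell from 2 to 3, from 2 to 4, from 2 to 3, from 1 to 5 and from 0 to 1. With no block these lists held 2 calls, a fall in the Wnt list and a rise in the BMP list.

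Transcription factor families other than Hox gave small numbers of calls. Sox genes gave 2 rises and 1 fall among 22, Fox genes 3 and 1 among 51, the other homeobox genes (Pax, Dlx, Lhx, Irx and related families) 4 and 2 among 55, and proneural and neural bHLH genes 1 and 2 among 18, with medians of 0.13, 0.13, 0.13 and 0.27. In that order, 9.09%, 5.88%, 7.27% and 5.56% rose, with same-level shares of 13.2%, 5.84%, 6.32% and 9.44%, and 4.55%, 1.96%, 3.64% and 11.1% fell, with same-level shares of 7.73%, 7.3%, 7.36% and 7.33%. sox1, a gene of neural progenitors, rose by 1.04 with any pair left out, while foxd1, pax8 and dlx1, at 0.85, 0.97 and 0.73, needed pairs 1 and 2. irx3 fell by 1.72 and sox9 by 1.54 with any pair left out. Immediate early genes gave 3 rises and 2 falls among 34 (8.82% and 5.88%, same-level shares 9% and 7.24%, median -0.17), with the 2 genes named myc rising by 0.98 and 0.62 and atf3 falling by 0.90. In the order given, the leave-out counts of rises in these 5 lists ran from 1 to 4, from 0 to 4, from 0 to 3, from 0 to 2 and from 1 to 2, and none had a call with no block.

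Genes of the yolk layer and liver had the highest share of falls outside the mitochondrially encoded list. The yolk syncytial layer wraps the yolk cell and packs its lipid into lipoproteins. Of 35 tested genes, 31 fell and none rose (88.6%, same-level share 7.09%), with a median of -1.74 and pair medians of -1.93, -2.07 and -1.18. The leave-out counts were 28, 28 and 31, and 10 fell with no block. apobb.1, the scaffold of lipoprotein particles, had 62.7, 83.8 and 167 CPM in Ribotag IP and 682, 623 and 667 CPM in Ribotag input, and fell by 2.78 (SE 0.27, adjusted p = 0.00019). apoa4b.1 had 15, 14.8 and 29.1 CPM in Ribotag IP and 96.2, 91.7 and 107 CPM in Ribotag input, and fell by 2.39 (SE 0.21, adjusted p = 9.71e-05). For both apolipoproteins the IP libraries lay far below the input libraries, with Ribotag IP 3 the highest of the IP libraries. apoc2 and apob fell by 2.24 and 2.92. The list took up 0.284% ± 0.0639 of counts in Ribotag IP and 0.803% ± 0.11 in Ribotag input (SD, n = 3 each). In bulk samples of this kind, fewer tagged ribosomes in a cell type, fewer cells of that type and fewer ribosomes on its mRNAs cannot be told apart.

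Other tissues were closer to balance. Summed levels of the markers in Ribotag IP and in Ribotag input were 291, 452 and 200 CPM against 240, 309 and 238 CPM for brain, and 22056, 23337 and 29187 CPM against 20229, 17950 and 23118 CPM for epidermis. They were 10662, 10418 and 20822 CPM in Ribotag IP against 6662, 6884 and 7813 CPM in Ribotag input for muscle, and 358, 268 and 527 CPM against 1698, 1251 and 1402 CPM for the yolk layer. Only the yolk layer sum lay lower, and only the muscle sum higher, in every IP library than in every input library among these 4 tissues. Of the other tissues with markers, only the lens had separate groups. Its sum was 81.9, 85.9 and 195 CPM in Ribotag IP against 61.8, 68.6 and 68.8 CPM in Ribotag input, and most of it was crybb1. For cryba4, the other lens marker tested, the groups overlapped, and it was not called (log2 fold change -0.17). It had 16.1, 11.9 and 41.1 CPM in Ribotag IP and 21.8, 21.4 and 24.0 CPM in Ribotag input. Most of the muscle sum was actc1b, at 9496, 8052 and 16685 CPM in Ribotag IP and 5545, 5294 and 5776 CPM in Ribotag input. For myhz1.1, the other muscle marker tested, the groups overlapped, at 1166, 2366 and 4137 CPM in Ribotag IP and 1117, 1590 and 2037 CPM in Ribotag input, and it was not called. Most of the brain sum was gfap, a gene of radial glia, at 239, 352 and 177 CPM in Ribotag IP and 185, 210 and 194 CPM in Ribotag input. The neuronal markers elavl3 and elavl4 went different ways. elavl3 had 24.8, 59.1 and 6.90 CPM in Ribotag IP and 37.1, 70.5 and 25.5 CPM in Ribotag input. It fell by 0.87 (SE 0.27, adjusted p = 0.0491), a call that did not hold without pair 3. elavl4 had 27.6, 40.7 and 16.9 CPM in Ribotag IP and 17.6, 29.0 and 18.9 CPM in Ribotag input. Its log2 fold change was 0.33 (SE 0.20, adjusted p = 0.298), so it was not called. Ribotag IP 3 was the IP library with the highest sums for muscle, epidermis and yolk layer and the lowest for brain.

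The neural list gave 9 rises and 3 falls among 47 (19.1% and 6.38%, same-level shares 14.3% and 7.18%, median 0.33), with leave-out counts of 2, 4 and 14 that rose, and no rise and 1 fall with no block. The fall of her4.2, described above, is also in this list, as is that of her4.1 by 0.84, which did not hold without pair 2. The rises of this list include tubb5 and tuba1c, which are also in the tubulin list, and sox1, which is also in the Sox list. otx2a, a gene of the forebrain and midbrain, had 49.0, 37.0 and 77.2 CPM in Ribotag IP and 22.7, 20.2 and 28.6 CPM in Ribotag input, and rose by 1.14 (SE 0.18, adjusted p = 0.00296) with any pair left out. Notochord, cartilage and fin fold genes rose in 8 of 21 cases and fell in 1 (38.1%, same-level share 15.7%, median 0.55), with leave-out counts of 1, 5 and 12 and none with no block. The named genes of that list that rose are collagens, col9a1 by 1.21 and col2a1, col9a1b and col9a2 by 1.08, 1.08 and 1.03. Pigment and neural crest genes rose in 5 of 22 cases and none fell (22.7%, same-level share 9.39%, median 0.12), with leave-out counts of 4, 3 and 3 and 1 with no block. tfap2e, a transcription factor gene of pigment cells, rose by 1.2 and the melanin enzyme gene tyrp1 by 0.95.

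Of 39 epidermis and periderm genes, 7 fell and 1 rose (17.9% fell, same-level share 6.69%, median -0.02), with leave-out counts of 3, 5 and 6 that fell and none with no block. evpla, for envoplakin of the cell envelope, had 14.9, 39.5 and 17.8 CPM in Ribotag IP and 45.2, 79.5 and 63.4 CPM in Ribotag input, and fell by 1.48 (SE 0.20, adjusted p = 0.00133). Skeletal muscle genes were split, with 3 rises and 5 falls among 43 (6.98% and 11.6%, same-level shares 19.3% and 6.83%, median 0.03). The leave-out counts were 1, 2 and 3 that rose and 3, 1 and 10 that fell, and none was called with no block. smyhc1, a slow myosin heavy chain gene, rose by 1.08 and the actin gene actc1b by 0.97, and neither call held without pair 1. The calcium-binding parvalbumins pvalb1, pvalb2 and pvalb4 fell by 1.3, 1.3 and 0.87, with pvalb1 at 105, 37.7 and 173 CPM in Ribotag IP and 216, 180 and 267 CPM in Ribotag input. Among the parvalbumins the call of pvalb1 alone held with any pair left out.

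Blood lists held falls and no rise. Erythroid genes gave 3 falls among 23 (13%, same-level share 7.19%, median -0.37), with leave-out counts of 1, 0 and 9. Myeloid genes gave 3 falls among 20 (15%, same-level share 5.87%, median -0.61), with leave-out counts of 2, 3 and 3. Neither blood list nor the endothelial list had a call with no block. alas2, the entry enzyme of erythroid haem synthesis, which also carries an iron-responsive element in mammals, fell by 0.62, a call lost without pair 1 or pair 2. Endothelial genes gave 3 rises and 2 falls among 42 (7.14% and 4.76%, same-level shares 6.24% and 8%, median -0.12), with leave-out counts of 1, 2 and 4 that rose. The receptor gene tek had 13.4, 13.8 and 20.4 CPM in Ribotag IP and 7.10, 6.79 and 7.73 CPM in Ribotag input, and rose by 1.11 (SE 0.20, adjusted p = 0.00586). cd34 fell by 1.46 and ramp2 by 1.07.

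Of the small tissues, the lens list gave 1 rise among 34 (2.94%, same-level share 6.32%, median -0.13), crybb1 at 1.05. The hatching gland list gave 2 rises and 1 fall among 10 (20% and 10%, same-level shares 18.5% and 7.18%, median 0.07). tnks1bp1, a member of that list that encodes no hatching enzyme, rose by 1.77, and the hatching enzyme gene he1.3 fell by 1.06. Pronephros genes gave 2 rises among 19 (10.5%, same-level share 7.34%, median 0.02). Ionocyte and mucous cell genes gave 1 fall among 8 (12.5%, same-level share 8.07%, median 0.08), the carbonic anhydrase gene ca2 by 2.44. Heart genes gave no call among 14 (same-level shares 5.16% that rose and 6.18% that fell, median -0.51). Of the 2 most abundant members, myh6 had the smaller adjusted p at 0.0684, with a log2 fold change above 0, at 0.56. The leave-out counts that rose were 1, 1 and 1 for the lens, 1, 2 and 2 for the hatching gland and 0, 0 and 2 for the pronephros. The hatching gland fall and the ionocyte fall held with any pair left out, and with pair 3 left out 1 heart gene and 1 lens gene fell. With no block 1 hatching gland gene rose and no other member of these lists was called. Of 2 tested genes in the list of named non-coding RNA, linc-epb41l4a had 168, 156 and 98.1 CPM in Ribotag IP and 282, 329 and 302 CPM in Ribotag input, and fell by 1.15 (SE 0.21, adjusted p = 0.00566).

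Some of the largest changes of single genes fell outside or across these lists. kcnj15, a potassium channel gene, had 5.90, 6.53 and 8.68 CPM in Ribotag IP and 1.48, 1.81 and 1.77 CPM in Ribotag input, and rose by 2.04 (SE 0.29, adjusted p = 0.00155). myef2, an RNA-binding repressor gene, rose by 1.69. ctnnd1, for the cadherin partner p120-catenin, had 453, 661 and 82.9 CPM in Ribotag IP and 78.6, 99.3 and 68.5 CPM in Ribotag input, so Ribotag IP 3 lay within the range of the input and its rise of 1.89 (SE 0.40, adjusted p = 0.0109) came from unequal pairs. sh3bp5a had 144, 324 and 294 raw counts in Ribotag IP and 0, 4 and 384 in Ribotag input. Its fitted rise of 3.81 did not hold without pair 2. Outside the mitochondrial genes, the largest falls among genes with a standard symbol, a mean log2 CPM no lower than 2 and the same direction in all 3 pairs were a2ml by 3.12, apob by 2.92 and cdc42se1 by 2.92. a2ml, a protease inhibitor gene, had 0, 1.82 and 3.75 CPM in Ribotag IP and 12.7, 14.2 and 9.33 CPM in Ribotag input.

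The same pull-down in the Angiotag line, which the series describes as giving the endothelial translatome, was set beside this comparison. Of 17913 genes, 2352 were higher in Angiotag IP than in Angiotag input (13.1%) and 2552 lower (14.2%). A single simulation per line gave 22 false calls in the Angiotag comparison and 5 in the Ribotag comparison, 13.7% and 3.8% of the calls. It changed far fewer genes than were called in the data, so these shares do not carry over to the calls given here. Of the 1306 genes that rose in Ribotag, 1305 were also tested in Angiotag, where 277 were higher and 96 lower, so that the shared rises were 21.2% of the Ribotag rises tested in both lines and 11.8% of the Angiotag rises. Of the 1268 that fell in Ribotag, 1249 were tested in Angiotag, where 564 were lower and 58 higher, and the shared falls were 45.2% of the Ribotag falls tested in both and 22.1% of the Angiotag falls. The difference between the log2 fold changes, Ribotag minus Angiotag, was tested as an interaction over the 12 libraries. It was above 0 for 1484 of 19046 genes (7.79%) and below 0 for 1495 (7.85%), and for 672 and 850 genes with no block. The list counts below stand against these shares over all genes, 13.1% and 14.2% for Angiotag and 7.79% and 7.85% for the difference. Same-level shares were not worked out for the lists in Angiotag.

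The mitochondrially encoded mRNAs fell in both lines, and most yolk and liver genes did. All 12 mitochondrial mRNAs were lower in Angiotag IP, with a median of -3.87 against -4.83 in Ribotag, and the difference was called for 2 of them. Of the yolk and liver genes, 23 of 35 were lower and 2 higher in Angiotag (median -0.84), and 17 had a lower value in Ribotag by the test of the difference while 1 had a higher value. Falls in Angiotag were not particular to yolk genes. Skeletal muscle gave 6 rises and 28 falls among 43 there, and pigment and neural crest 1 and 15 among 22 (median -0.95 each). The endothelial, myeloid and erythroid lists gave 0 falls. The splicing lists rose less often in Angiotag than in Ribotag. SR proteins and splicing regulators gave 10 rises and no fall among 42 (median 0.35), with 12 above and 1 below by the test of the difference. Their share of rises in Angiotag was still above that over all genes. The spliceosome core gave 10 rises and 1 fall among 83 in Angiotag (median 0.36), with a share of rises near that over all genes, and 14 above and 1 below by the difference. hnRNP genes gave 1 rise and 3 falls among 36 (median 0.09), and the difference was above 0 for 14 and below 0 for none. acin1a rose by nearly as much in both lines, by 1.77 in Ribotag and by 1.81 in Angiotag, whereas wbp11, with 1.98 in Ribotag and 0.32 in Angiotag, differed by 1.68 (SE of the difference 0.24, adjusted p = 0.000205).

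For other lists too the difference between the lines was tested gene by gene. Of the aminoacyl-tRNA synthetases none rose and 1 fell in Angiotag (median -0.13), and 9 of 19 differed, all with the higher value in Ribotag. Replication factors gave 2 rises and 3 falls among 53 in Angiotag, and 14 differed upwards and 1 downwards. The iron list gave 1 rise and no fall among 13 (median 0.14), and 6 members had a lower value in Ribotag. tfr1b, which fell by 1.34 in Ribotag, had a log2 fold change of 0.51 in Angiotag, a difference of -1.83 (adjusted p = 0.000347). fth1a had -1.41 and -0.84 in the 2 lines, and its difference of -0.56 was not called (adjusted p = 0.334). For the Hox genes, which gave 1 rise and 15 falls in Angiotag (median -0.38), the difference was above 0 for 4 and below 0 for 2 of 47. The share of Hox genes that fell in Angiotag was above that over all genes. This was not particular to Hox genes. Pax and related genes gave 3 rises and 24 falls among 54 in Angiotag (median -0.80), and Sox genes 5 and 13 among 23 (median -0.72). The Hox shares of rises and of differences were near or below the shares over all genes. Notch genes gave 7 rises and 10 falls among 40 in Angiotag, and solute carriers 26 rises and 54 falls among 287 (median -0.34).

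Several lists tied to a tissue, and the collagens, differed in many members. Endothelial genes rose in 41 of 46 cases in Angiotag (median 3.99), and 40 had a lower value in Ribotag by the test of the difference. tek had 1.11 in Ribotag and 4.73 in Angiotag, a difference of -3.60 (adjusted p = 4.66e-07). Neural genes gave 2 rises and 27 falls among 47 in Angiotag (median -0.71), and collagens 4 rises and 22 falls among 49 (median -0.66). By the test of the difference 24 neural genes and 27 collagen genes had the higher value in Ribotag. For myeloid and erythroid genes, 13 and 10 members had a lower value in Ribotag and none a higher one. rpl10a itself had -0.14 in Ribotag and 1.15 in Angiotag, a difference of -1.27 (SE 0.31, adjusted p = 0.0122).

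**Figure D5:**
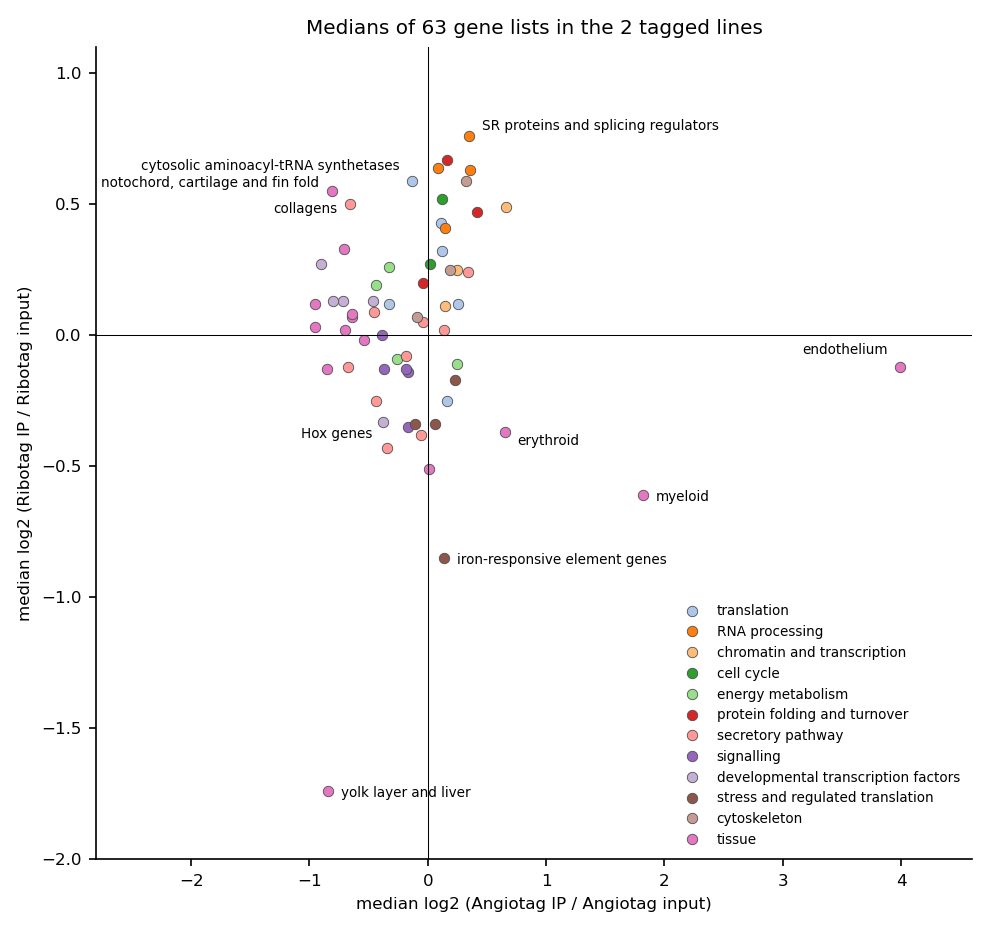
Median log2 fold change of 63 gene lists in Ribotag IP against Ribotag input, on the vertical axis, and in Angiotag IP against Angiotag input, on the horizontal axis. Each point is a list. The endothelium list lies far to the right (3.99) and near 0 on the vertical axis (-0.12), the yolk layer and liver list is low on the vertical axis (-1.74), and the splicing lists lie at the top.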

How the data were processed

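The authors deposited raw, unscaled counts for each Ensembl gene in 1 table that has a column for each of the 18 libraries. Per the submitters' processing notes, STAR 2.4.2a, RSEM 1.2.22, DESeq2 and genome build GRCz10 were used, and their roles, the annotation and the use of strand are not given in the sources used here. Whether the whole numbers are rounded estimates is not stated, and reads of close paralogs may be split between copies. Of 25193 genes, 22548 (89.5%) received a symbol from an Ensembl name table.

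Ribotag IP and Ribotag input, 3 libraries each, were compared in edgeR 4.0.16 (R 4.3.3) by its quasi-likelihood test. TMM scaling, filterByExpr (minimum count 10, minimum total count 15), Benjamini-Hochberg adjustment over all genes tested, a threshold of 0.05 and the replicate number as a block were used. Deviations from the group means correlated between same-numbered Ribotag IP and input at 0.17, 0.57 and 0.41, and between differently numbered ones at -0.47 to 0.07. Pair 1 thus stood out least. In Angiotag the same-numbered values were 0.33, 0.16 and 0.21. There IP 3 with input 2 gave 0.19 and IP 2 with input 3 gave 0.18, and the other differently numbered ones were below 0. The numbers therefore do not clearly pair samples 2 and 3 of Angiotag. The SE was taken from the test, as the size of the log2 value over the root of F. Replicates differed by more than counting error, with a chi-square per degree of freedom from 25.8 to 312.6 within groups. On simulated counts of 17655 genes, the test for this comparison recovered 45.4% of genes changed by 1 and 84.0% of those changed by 2 on the log2 scale, and 3.8% of its calls were false. On those of 17571 genes, the Angiotag comparison recovered 54.6% and 90.5%, and 13.7% of its calls were false. Each simulation was run once and changed far fewer genes than were called in the data. The share of false calls depends on that number, so it does not carry over to the data. The test of the difference between the lines was not simulated.

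The comparison, the 65 gene lists and the rule for named genes were chosen with earlier results of these data known. Lists are described by counts and medians and were not tested. Of 999 list entries given as symbols, 888 matched, 137 of them without their copy letter, and 77 genes stand in more than 1 list. The same-level shares were added after the trend with level was seen. Named genes are rpl10a and mt-nd5, the 15 largest rises and 15 largest falls that passed the threshold in the same direction in all 3 pairs, at a mean log2 CPM no lower than 2 and with a standard symbol, and per list up to 4 members in its main direction and 2 in the other by adjusted p, or the 2 most abundant members where none passed. Some genes that this rule names are not reported here. The srsf3 copies and the most and least changed mitochondrial genes were added for context after their values were seen.

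Other settings tried were DESeq2 1.42.0, upper-quartile and RLE scaling, no filter or 1 CPM in 3 libraries, no replicate block, each pair left out, mitochondrially encoded or ribosomal protein genes left out, and all 18 libraries in 1 fit.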

Additional observations from a re-analysis of the deposited data

Results flagged for a closer look

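The enrichment in the IP differed between the lines, by the test of the difference itself, for 1484 genes with a higher and 1495 genes with a lower log2 fold change in Ribotag than in Angiotag. Among the genes with the largest changes in Ribotag, the difference, Ribotag minus Angiotag, was above 0 for srsf3a (6.17), col5a3b (2.98), dync1h1 (1.92), wbp11 (1.68), hnrnpa1a (1.55), kcnj15 (1.48), ewsr1b (1.19), myef2 (1.1) and ewsr1 (1.04). It was below 0 for apob (-2.59), mt-nd3 (-1.77) and mt-co3 (-1.54). The difference was also below 0 (-1.27) for rpl10a, which is named as the gene of the tagged protein and was not called in Ribotag. For apob, mt-nd3 and mt-co3 both values were below 0, and the one in Ribotag was farther from 0. For col5a3b the values had opposite signs, 1.86 in Ribotag and -1.1 in Angiotag, and for rpl10a they were -0.14 and 1.15.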

How the results depend on the processing

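The replicate block had the largest effect. With no replicate block 127 genes were higher and 90 lower in Ribotag IP, and the difference between the lines was called for 672 genes above 0 and 850 below 0. All 18 libraries in 1 fit gave 661 genes higher, and no low-count filter gave 2012 genes lower and a median of all genes 0.128 lower than with the filter. Upper-quartile scaling moved the share of calls that were higher to 37.2%, from 50.7% with TMM, and the fits without pair 1, 2 or 3 to 30.3%, 39.1% or 61.9%. With a pair left out, the genes higher in Ribotag IP numbered 361 to 1590 and those lower 832 to 977. In Angiotag IP 955 to 2807 were higher and 811 to 3461 lower, with the lowest counts without pair 3. The difference was above 0 for 366 to 1073 and below 0 for 611 to 1252 genes. No gene called in the Ribotag comparison was called in the other direction under any alternative run. This was not checked for Angiotag or for the difference. Of the 2574 Ribotag calls, 2547 were kept by DESeq2, 2548 with RLE scaling, 2206 with upper-quartile scaling and 217 with no block. Of 281 named genes that passed, 138 passed without each pair in turn and 64 passed with no replicate block.

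List medians minus the median of all genes moved between settings, and are given here for some of the lists. With pair 1, 2 or 3 left out they were -0.26, 0.11 and -0.36 for cytosolic ribosomal proteins, against -0.15 with all pairs. In the same order they were -0.11, 0.21 and -0.20 for the nuclear respiratory chain, against -0.02. For collagens they were 0.62, 0.40 and 0.74, against 0.60. In the main fit these values were 0.86 for SR proteins and 0.73 for hnRNP genes. With no low-count filter they were 0.86 for hnRNP genes, 0.98 for SR proteins, 0.62 for mRNA export, 0.47 for the citric acid cycle, 0.41 for heat shock, 0.46 for ER folding, 0.19 for COPI and COPII, 0.07 for BMP, -0.12 for Hox, 0.32 for Fox, 0.18 for proneural, 0.00 for immediate early and 0.55 for neural genes. With the stricter filter of 1 CPM they were 0.80 for SR proteins, 0.45 for mRNA export, 0.28 for ER folding, 0.18 for Fox, 0.30 for proneural, -0.14 for immediate early, -0.10 for heart, -0.94 for myeloid and 0.36 for neural genes. All 18 libraries in 1 fit gave 0.91 for SR proteins, 0.39 for ER folding and 0.25 for Fox genes. With a pair left out they ran from 0.87 to 0.90 for SR proteins, 0.60 to 0.75 for the spliceosome, -0.20 to 0.15 for sterol synthesis, 0.29 to 0.37 for ER folding, 0.05 to 0.11 for COPI and COPII, -0.12 to 0.16 for semaphorins, -0.27 to 0.02 for Hedgehog, 0.16 to 0.28 for Fox, 0.09 to 0.29 for Pax and related genes, 0.28 to 0.38 for proneural, -0.79 to -0.56 for myeloid, 0.32 to 0.45 for neural, 0.44 to 0.73 for notochord and -1.11 to -0.78 for the non-coding genes.

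Part of these moves is a shift of the median of all genes, which is subtracted. With no low-count filter that median was 0.128 lower, while the medians of SR proteins and hnRNP genes stayed at 0.76 and 0.64. The median of proneural genes itself went from 0.27 to -0.05. Beyond this and leaving out pairs, the cause of these moves was not tested, except that fewer samples or other genes enter some of the fits. A comparison by protein length and signal sequence was not run, because no protein table was used here. With 3 samples per group and libraries of 29.5 to 49.5 M counts, a gene that was not called is not shown to be unchanged, and the genes of lowest level gave almost no rises.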

Other observations

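Gene families outside the lists were surveyed by the start of their symbols, after values had been seen, and are described without a test. Same-level shares are as in the report. Of 143 symbol groups with at least 10 genes tested and mostly outside the lists, the nucleoporins (symbols beginning with nup), which form the nuclear pore, had the highest share of rises. Of 21 nucleoporin genes, 12 rose and none fell (57.1%, same-level share 17.2%, median 0.62), among them nup107 at 1.11, nup85 at 1.06 and nup205 at 1.05. RNA helicases named ddx rose in 15 of 34 cases and none fell (44.1%, same-level share 15.6%, median 0.57), although 14 of the 34 also stand in a list above. RNA-binding motif genes (rbm) rose in 11 of 39 cases (28.2%, same-level share 11.7%), rbm4.1 by 1.43 and rbm25 by 1.34, and fell in 1, rbm24 by 1.29. Integrator subunits (ints), of the complex that processes small nuclear RNA, rose in 5 of 16 cases (31.2%, same-level share 9.34%) and fell in 1.

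Falls were the more common call in other families. The highest share was in genes named stard, of which 4 of 11 fell and none rose (36.4%, same-level share 8.93%, median -0.57). Of 10 genes named atf, 3 fell and 1 rose (30% fell, same-level share 7.54%), and 4 of the 10 also stand in a list. Of 12 genes named pip, 3 fell (25%, same-level share 7.11%, median -0.94). Of 10 genes named cdkn, 3 fell (30%, same-level share 7.27%), the cell cycle inhibitors cdkn1a by 0.98, cdkn1cb by 0.82 and cdkn1b by 0.73. Of 10 fatty acid elongases (elovl), 3 fell (30%, same-level share 8.24%), among them elovl5 by 3.12 at a low level. Of 14 genes named timm, for import into mitochondria, 3 fell (21.4%, same-level share 7%), timm13, timm8b and timm17a by 0.76, 0.68 and 0.59.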
